A study of Mus musculus with 6 samples.

Results

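Neurotransmitter receptor genes were followed in cultured fetal hypothalamic NSC/NPCs (neural stem/progenitor cells) of mice whose dams had been given estradiol valerate. The receptor genes were taken by gene symbol from the RNA-Seq table of the study: GABA-A subunits (Gabr), glycine receptor subunits (Glra, Glrb), AMPA (Gria), kainate (Grik), NMDA (Grin) and metabotropic glutamate receptors (Grm), nicotinic (Chrn) and muscarinic (Chrm) acetylcholine receptors, and serotonin (Htr), dopamine (Drd) and adrenergic (Adra, Adrb) receptors. This gave 97 of 22048 genes in 11 classes, after 10 genes that share these letters but are not receptors, such as Grina, the glutaredoxins and the HtrA proteases, had been dropped. Receptors for GABA at the B type, histamine, purines and peptides are outside this choice.

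There were 3 HE (high estradiol) and 3 NC (control) samples. C57BL/6 dams of 8 weeks in the HE group were gavaged with 100 μg/kg/d estradiol valerate, an estrogen ester, over E5.5 to E11.5, and the treatment text gives corn oil, the solvent, for NC dams, although the NC samples carry the label untreated. Male fetuses of both groups were taken at E14.5, and cells of their hypothalami were grown as floating neurospheres with 10 ng/mL EGF and 10 ng/mL bFGF to the first passage, with 2 mice in each sample. The cells are thus a growth-factor culture and not hypothalamic tissue, and RNA was taken without differentiation. The progenitor genes Sox2 (97.3 to 209 RPKM), Nes (154 to 247 RPKM) and Vim (1234 to 1803 RPKM) were present in every sample, so defining markers of the labelled cell type were detected. RPKM divides the reads on a gene by its length and by the sample's total, so that levels of different genes can be compared. No source used here says whether the samples of a group came from separate litters or culture runs, so p-values measure only the spread between these samples.

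Neurotransmitter receptors fall into ion channels that open when the transmitter binds and receptors that act through G proteins. GABA-A, glycine, nicotinic and Htr3 serotonin receptors are pentamers of related subunits, ionotropic glutamate receptors are tetramers, and the metabotropic glutamate, muscarinic, dopamine, adrenergic and remaining serotonin receptors are G protein-coupled. Progenitors and glia carry some of these receptors before synapses exist, and GABA and glutamate are known to act on the division of neural progenitors.

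Many GABA-A subunit genes lie side by side in the genome. On chromosome 5 the order is Gabrg1, Gabra2, Gabra4 and Gabrb1, and on chromosome 7 Gabrg3 and Gabra5 are neighbours. The gamma subunit gene of each cluster was among the receptor genes that differed most between HE and NC, in opposite directions, as described further on. The levels of Gabrg1 and Gabra4 are compared further on. The promoter windows of both gamma genes and of 1 neighbour each are printed. Each runs from 250 bases before to 50 bases after the annotated start (RefSeq, GRCm38.p6), 5′ to 3′ on the minus strand, which is the strand of all 4 genes, with CG dinucleotides in capitals. Gabrg1 is at chr5:70842568-70842867, Gabra4 at chr5:71658259-71658558, Gabrg3 at chr7:57387166-57387465 and Gabra5 at chr7:57510010-57510309. The Gabra5 start in the table of windows lies inside the span of the gene (57407669 to 57591016), so that this window is at an internal start, whereas the other 3 are at the outer end of the gene.
Gabrg1: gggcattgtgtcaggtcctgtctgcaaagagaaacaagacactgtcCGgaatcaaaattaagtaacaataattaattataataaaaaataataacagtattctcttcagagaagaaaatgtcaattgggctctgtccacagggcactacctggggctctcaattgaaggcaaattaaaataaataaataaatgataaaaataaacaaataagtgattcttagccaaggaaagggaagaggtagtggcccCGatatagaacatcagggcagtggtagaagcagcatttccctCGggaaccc
Gabra4: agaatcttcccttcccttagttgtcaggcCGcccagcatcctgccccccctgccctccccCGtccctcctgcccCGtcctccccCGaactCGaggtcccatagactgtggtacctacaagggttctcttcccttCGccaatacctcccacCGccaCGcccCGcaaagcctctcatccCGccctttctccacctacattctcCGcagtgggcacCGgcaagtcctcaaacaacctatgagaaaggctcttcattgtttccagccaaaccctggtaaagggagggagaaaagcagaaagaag
Gabrg3: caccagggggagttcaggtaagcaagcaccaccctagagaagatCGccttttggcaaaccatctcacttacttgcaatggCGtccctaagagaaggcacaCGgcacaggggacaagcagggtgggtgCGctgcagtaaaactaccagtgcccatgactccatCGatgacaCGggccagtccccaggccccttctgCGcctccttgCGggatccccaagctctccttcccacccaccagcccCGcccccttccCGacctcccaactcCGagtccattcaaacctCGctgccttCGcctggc
Gabra5: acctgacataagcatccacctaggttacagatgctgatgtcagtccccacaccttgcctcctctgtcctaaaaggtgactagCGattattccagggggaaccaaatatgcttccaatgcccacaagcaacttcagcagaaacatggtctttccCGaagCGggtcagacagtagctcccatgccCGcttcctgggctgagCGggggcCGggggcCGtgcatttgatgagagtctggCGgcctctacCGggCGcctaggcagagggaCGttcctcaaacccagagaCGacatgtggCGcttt

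The Gabrg1 window held 3 CG dinucleotides and was 38.3% G or C, against 12 and 58.7% for Gabra4. The Gabrg3 window held 13 at 61% G or C, close to the 13 at 56.7% of Gabra5. Gabra2, which lies between Gabrg1 and Gabra4, had 25 CG dinucleotides. The median over all 32851 windows of the RefSeq table was 7. The estrogen response element (GGTCA and TGACC with 3 free bases between them), its half-site AGGTCA and TATAAA, each searched on both strands, matched none of these 5 windows, while they matched 0.07%, 16.3% and 13.6% of all windows. A full element that follows an A also counts as a half-site. No match says only that these letters are not in these windows. A window was found for 71 of the 97 receptor genes, too few for a comparison over the whole set.

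The samples held 16078675 to 19137059 reads on genes, so that 1 read on a gene of 1 kilobase is worth 0.0523 to 0.0622 RPKM. HE3 stood apart from the other samples. It had the fewest reads, its median-of-ratios size factor was 0.8989 of that given by its total against 1.002 to 1.033 in the others, and it was the lowest of the 6 samples in 44.4% and the highest in 24.5% of all 13952 genes tested. Of the tested receptor genes it was the lowest in 36.5% and the highest in 28.8%, and values without HE3 are therefore given beside many of the results.

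Most receptor genes were weakly expressed. Of the 97 genes, 52 (53.6%) passed the filter on low counts and were tested, against 63.3% of all genes in the table, and 45 were not tested. To pass, a gene needed 15 reads over all 6 samples and, in 3 or more of them, a level equal to 10 reads at the median depth. Of the 52, 39 met the rate in all 6 samples, 0 met it in HE alone and 0 in NC alone. The mean over the 6 samples was under 0.1 RPKM for 37 receptor genes and at least 1 RPKM for 20, and the median of the tested receptor genes was 0.718 RPKM against 5.88 RPKM for all genes tested.

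The 7 receptor genes with a mean of at least 5 RPKM belonged to different transmitters, and 6 of them are given here. Grm3 (21.4 RPKM) and Grm5 (14.1 RPKM), G protein-coupled glutamate receptors, and the glutamate channel subunits Gria1 (18.4 RPKM) and Grik5 (14.1 RPKM) came first. Adrb1, the beta-1 adrenoceptor, was at 7.81 RPKM and the serotonin channel subunit Htr3a at 6.81 RPKM. These orders are descriptive, since the ranges over samples of Gria1, Grik5 and Grm5 overlapped, as did those of Adrb1 and Htr3a. Together, the 24 glutamate receptor genes held 63.5% of receptor RPKM in NC and 62.9% in HE.

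Among the 45 untested receptor genes 3 had 0 reads in every sample. Gabra6 and Glra2, both channel subunits, and Drd5, a dopamine receptor, could have been at up to 0.011, 0.00867 and 0.00866 RPKM, the level of 3 reads over the 6 samples together, a limit that covers counting error only. A further 18 genes had fewer than 15 reads in all. The untested genes with the most reads were Grin2c, an NMDA subunit (22, 9 and 13 reads in NC and 6, 5 and 6 in HE), Chrnb4, a nicotinic subunit (19, 7 and 9 against 9, 14 and 0), and Gabra5 (8, 11 and 8 against 9, 3 and 18). The glycine receptor alpha subunit genes Glra1, Glra3 and Glra4 had 9, 7 and 24 reads in all.

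**Figure D1:**
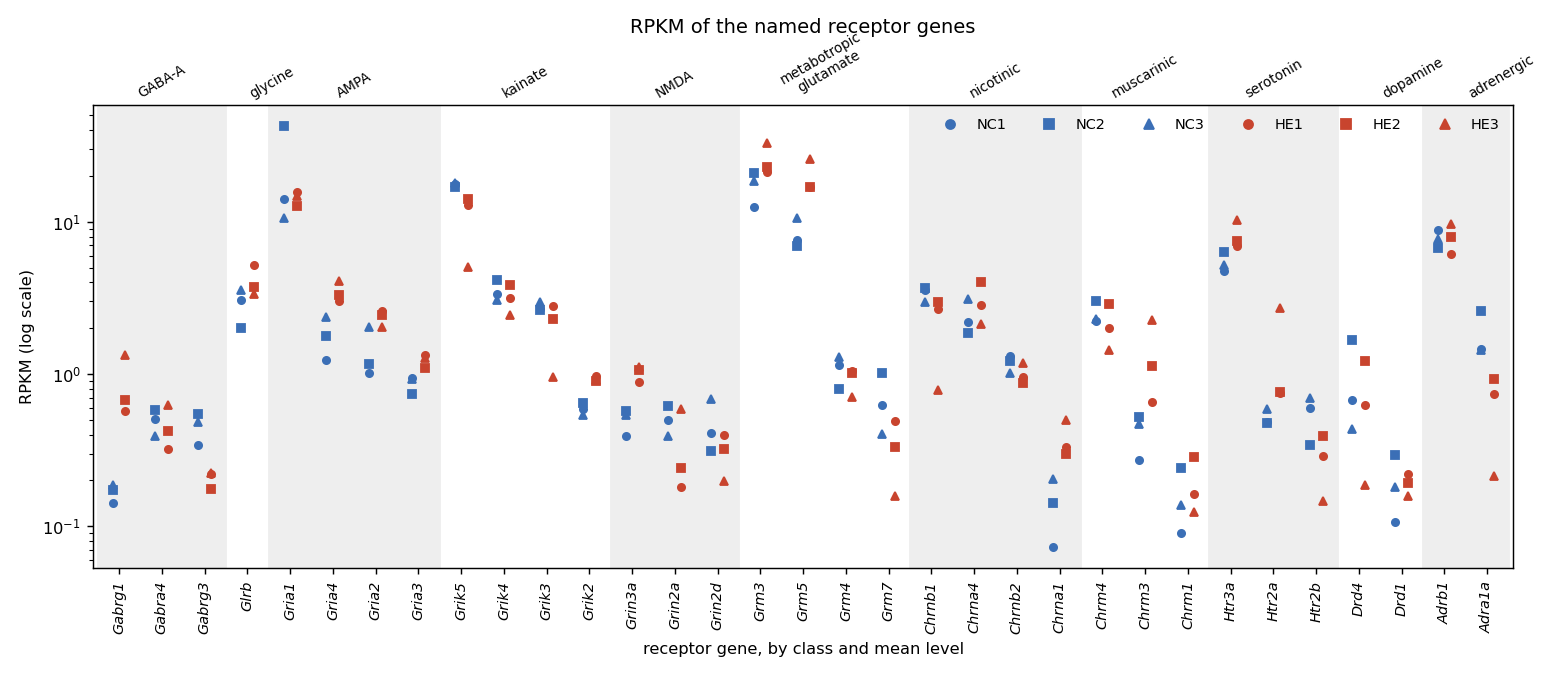
RPKM of 33 tested receptor genes named in the text (log axis), one column per gene, grouped by class and ordered by mean level within a class. Blue symbols are the NC samples and red symbols the HE samples. Grm3, Grm5 and Gria1 reach over 20 RPKM, NC2 lies at 42.3 RPKM for Gria1, and HE3 is far below the other samples for Grik5 and Chrnb1.

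HE and NC were compared with limma on log2(RPKM + 0.1), with p-values adjusted over all 13952 genes. A log2 fold change is HE minus NC on this scale, which understates the change of genes at low levels. No receptor gene was called at a log2 fold change of 1 and an adjusted p under 0.05, as was true of all genes (0 of 13952, 0%). The paper reports differentially expressed mRNAs in both directions at these cutoffs, with a count model that was not run here. The absence of calls is therefore that of this limma fit. At an unadjusted p under 0.05, 13 of the 52 were higher in HE, against 8.68% of all genes tested, and 2 were lower, against 11.8%. Together this was 28.8% of the tested receptor genes and 20.5% of all genes. The adjusted p-values of these 15 were between 0.195 and 0.236 in limma, so none passed 0.05. The same fit with sample weights called 5 receptor genes, and voom on the read counts called 0. In bulk RNA, a difference in the number of cells that carry a receptor and one in RNA per cell cannot be told apart.

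The 3 HE values did not overlap the 3 NC values for 18 tested receptor genes. Of these 14 were higher in HE, against 14.8% of all genes, and 4 lower, against 17.9%; the total of 34.6% is close to the 32.7% of all genes. A log2 fold change of at least 1 either way was found in 8 receptor genes (15.4%), against 4.76% of all genes, and the receptor genes were expressed at a lower level. In direction they were split, with 27 higher (51.9%, against 43.8% of all genes) and 25 lower and a median of 0.01, where the median of all genes was -0.059.

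**Figure D2:**
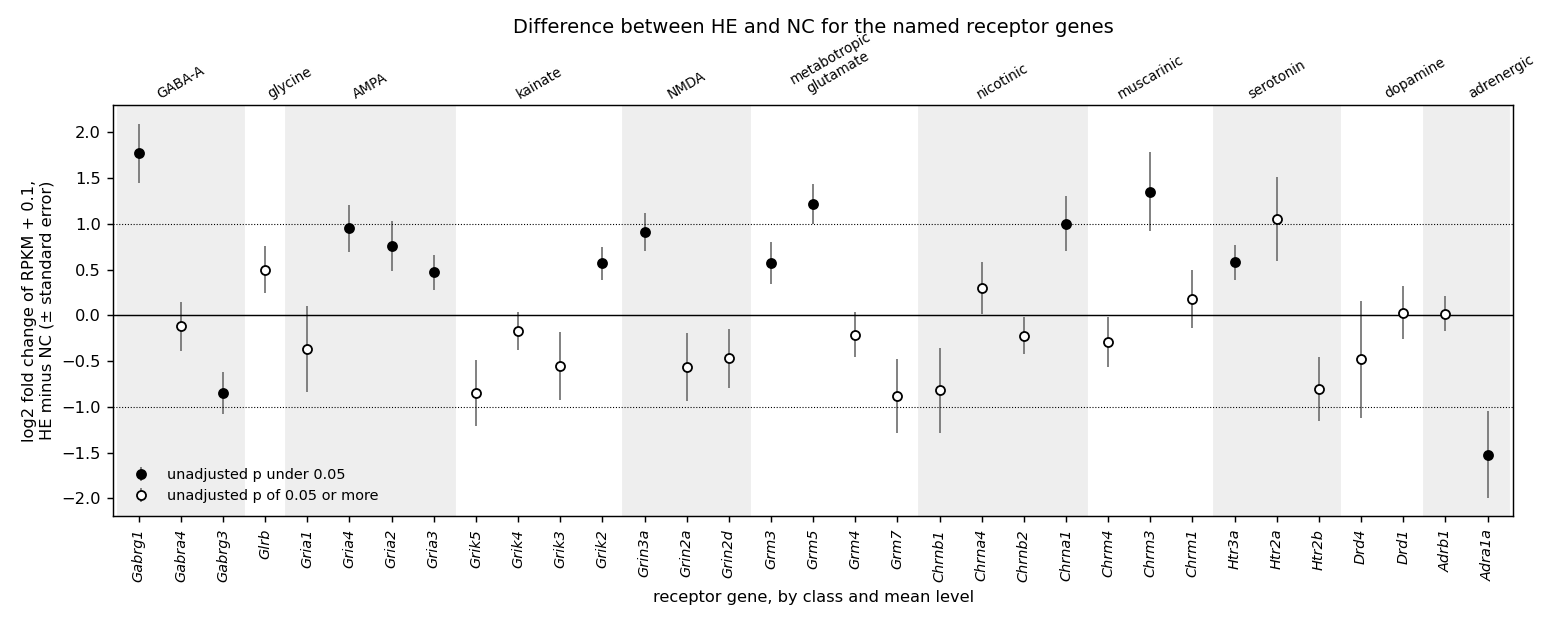
Log2 fold change of the same 33 receptor genes, HE minus NC, with its standard error from limma (n = 3 per group), in the order of the plot of levels. Filled points have an unadjusted p under 0.05. Gabrg1 is highest at 1.77 and Adra1a lowest at -1.52, and the filled points above 0 include Gria2, Gria3 and Gria4 as well as Grm3 and Grm5.

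The metabotropic glutamate receptors had the largest difference of summed level among the 11 classes in RPKM. Their sum was 22.1, 29.7 and 30.9 RPKM in NC and 40.1, 41.5 and 60.0 RPKM in HE. The groups did not overlap, and HE was 1.71 times NC (1.48 times without HE3). Nearly all of it came from a pair of genes.

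Grm5, a receptor of group I, which couples to phospholipase C, lies on chromosome 7 (87583981 to 88135063). It was at 7.64, 6.94 and 10.6 RPKM in NC and at 16.9, 16.8 and 25.7 RPKM in HE. Every HE sample lay above every NC sample, and HE1 and HE2 were nearly equal. The means were 8.39 ± 1.93 and 19.8 ± 5.11 RPKM (SD, n = 3 each), and the log2 fold change was 1.22 (standard error, SE, 0.22, unadjusted p = 0.000879, adjusted p = 0.195 in limma). Leaving out each sample in turn gave 1.02 to 1.40, and the gene passed an unadjusted p of 0.05 in 6 of 6 such fits. With 1361 to 4233 reads per sample it was also among the most deeply counted receptor genes.

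Grm3, of group II, whose members inhibit adenylyl cyclase and which is known from astrocytes, was at 12.5, 20.8 and 18.4 RPKM in NC and 21.3, 22.9 and 32.7 RPKM in HE. HE1 was just above NC2. Its log2 fold change of 0.57 (SE 0.23, unadjusted p = 0.044) was 0.38 with an unadjusted p of 0.112 in limma without HE3.

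Group III, the presynaptic type in neurons, was lower in sum. Its 4 genes summed to 1.82, 1.87 and 1.76 RPKM in NC and 1.67, 1.39 and 0.939 RPKM in HE, without overlap, HE3 being the lowest. Grm7 showed a log2 fold change of -0.88 (SE 0.40, unadjusted p = 0.0652 in limma), with 0.404 to 1.02 RPKM in NC and 0.158 to 0.493 RPKM in HE. Without HE3 it was -0.56 (unadjusted p = 0.171 in limma) and without NC2 -0.58. Grm4 had -0.21, and -0.04 without HE3. As a share of all Grm RPKM, group III made up 8.23, 6.30 and 5.69% in NC and 4.16, 3.35 and 1.56% in HE.

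The AMPA receptors, which carry fast excitatory currents, were dominated by Gria1 and by 1 sample. Gria1 was at 14.2, 42.3 and 10.6 RPKM in NC and 15.8, 12.7 and 14.8 RPKM in HE. NC2 lay far above the other 5 samples, which spanned 10.6 to 15.8 RPKM. The log2 fold change of -0.37 (SE 0.47, unadjusted p = 0.457 in limma) was 0.23 without NC2, and the class sum of HE was 0.813 of NC with NC2 and 1.29 of NC without it.

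The other 3 AMPA genes were each higher in HE at an unadjusted p under 0.05. Gria4, a subunit that is prominent early in development, was at 1.23, 1.78 and 2.36 RPKM in NC and 3.01, 3.31 and 4.11 RPKM in HE. The groups did not overlap, and the log2 fold change was 0.95 (SE 0.26, adjusted p = 0.195 in limma; 0.83 without HE3). Gria2, whose edited subunit makes the channel impermeable to calcium, was at 1.02, 1.16 and 2.05 RPKM in NC and 2.59, 2.46 and 2.05 RPKM in HE, so that NC3 met HE3. Its log2 fold change was 0.76 (SE 0.27, adjusted p = 0.21). Gria3 had 0.742 to 0.935 RPKM in NC and 1.10 to 1.33 RPKM in HE, a log2 fold change of 0.47. With single samples left out, the unadjusted p stayed under 0.05 in 6 of 6 fits for Gria4, 2 for Gria2 and 0 for Gria3. Without Gria1 the class summed to 3.19, 3.68 and 5.34 RPKM in NC and 6.93, 6.87 and 7.44 RPKM in HE, so the remainder was apart and similar in the 3 HE samples. This sum was chosen after the values of Gria1 had been seen.

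Kainate receptors modulate transmitter release and excitability. Their summed RPKM was almost the same in the NC samples, at 24.5, 24.8 and 24.8, and was 20, 21.5 and 9.75 in HE. Every HE sample was below NC, with HE3 the lowest. The ratio of HE to NC was 0.692, and 0.841 without HE3.

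Grik5, a subunit that needs a partner of Grik1 to Grik3 to form a channel, made up most of this sum. It was at 17.8, 16.9 and 18.1 RPKM in NC and 12.8, 14.1 and 5.02 RPKM in HE. The NC samples were tightly grouped and HE3 was well below HE1 and HE2. The log2 fold change was -0.85 (SE 0.36, unadjusted p = 0.051, adjusted p = 0.245 in limma). Without HE3 it was -0.38 with an unadjusted p of 0.00499, a smaller difference with a smaller spread. The Grik5 span overlaps that of Zfp574 in the RefSeq annotation, and reads of overlapping genes could not be told apart where counting ignored strand.

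Grik2, a channel-forming partner, was at 0.586, 0.644 and 0.542 RPKM in NC and 0.972, 0.894 and 0.910 RPKM in HE. The groups were apart by more than the spread within either, with a log2 fold change of 0.57 (SE 0.18, unadjusted p = 0.0148, adjusted p = 0.195 in limma) that was 0.58 without HE3. Grik1 to Grik3 together rested mainly on Grik3 (-0.55, and -0.11 without HE3) and made up 14.6 ± 0.762% of kainate RPKM in NC and 20.1 ± 3.42% in HE. Their sum itself overlapped, at 3.37, 3.77 and 3.68 RPKM in NC and 4.09, 3.56 and 2.28 RPKM in HE, while the kainate total was lower in HE. Grik4, the other subunit that needs a partner, differed by -0.17 on the log2 scale, or by -0.01 with HE3 left out.

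NMDA receptors are calcium-permeable channels that need the Grin1 subunit. Their sum was low and nearly equal in all samples, at 2.19 to 2.36 RPKM in NC and 2.27 to 2.44 RPKM in HE, but its makeup differed. The 4 Grin2 genes, which bind glutamate, summed to 1.36, 1.21 and 1.41 RPKM in NC and 0.755, 0.777 and 0.967 RPKM in HE. The 2 Grin3 genes, whose subunits bind glycine and lower calcium entry, summed to 0.504, 0.650 and 0.650 RPKM in NC and 1.04, 1.25 and 1.24 RPKM in HE. The groups were apart in both sums, in opposite directions, and Grin3 made up 26.6 ± 3.63% of NMDA RPKM in NC and 49.4 ± 3.35% in HE (SD, n = 3).

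Grin3a carried the Grin3 difference. It was at 0.391, 0.570 and 0.538 RPKM in NC and 0.883, 1.06 and 1.12 RPKM in HE, a log2 fold change of 0.91 (SE 0.21, unadjusted p = 0.00352, adjusted p = 0.195 in limma; 0.84 without HE3). Its span holds Ppp3r2, a gene that lies within it. Among the Grin2 genes no single one passed an unadjusted p of 0.05. Grin2a was at 0.496, 0.618 and 0.394 RPKM in NC and 0.181, 0.240 and 0.586 RPKM in HE, with HE3 at the NC level, and its log2 fold change of -0.56 was -0.95 (unadjusted p = 0.00676 in limma) without HE3. Grin2b was at 0.189 to 0.214 RPKM in NC and 0.108 to 0.163 RPKM in HE, and Grin2d differed by -0.47 on the log2 scale (-0.26 without HE3 and -0.21 without NC3). Grin1 was at 0.332 ± 0.0345 and 0.366 ± 0.153 RPKM.

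GABA-A receptors are chloride channels, usually of alpha and beta subunits with a gamma subunit. The class summed to 9.72, 10.7 and 9.23 RPKM in NC and 11.8, 8.96 and 11.9 RPKM in HE, and the groups overlapped. The 6 alpha genes summed to 0.863 ± 0.0978 RPKM in NC and 0.921 ± 0.274 RPKM in HE.

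Gabrg1 (chromosome 5, 70751047 to 70842617) had the largest log2 fold change of the tested receptor genes. It was at 0.142, 0.173 and 0.188 RPKM in NC and 0.575, 0.680 and 1.34 RPKM in HE, from 21, 26 and 28 reads against 81, 102 and 169. The NC samples were close together, HE3 was highest, and the lowest HE value was above the highest NC value. The log2 fold change was 1.77 (SE 0.32, unadjusted p = 0.000729, adjusted p = 0.195 in limma), with 1.44 to 1.99 when single samples were left out, 1.44 being the value without HE3. On the same scale with a pseudocount of 1 it was 0.65.

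Its neighbours did not share the difference. Gabra4 was at 0.508, 0.584 and 0.390 RPKM in NC and 0.321, 0.422 and 0.624 RPKM in HE, Gabrb1 at 0.206 to 0.389 and 0.197 to 0.218 RPKM, and Gabra2 at 0.083 ± 0.0215 and 0.0828 ± 0.0258 RPKM. Within each sample the log2 ratio of Gabrg1 to Gabra4 was -1.33, -1.33 and -0.77 in NC and 0.68, 0.58 and 0.99 in HE. Gabrg1 was thus the lesser of this pair in every NC sample and the greater in every HE sample. This ratio was chosen after the values had been seen and carries no test. The spans of Gabra4 and Gabrb1 overlap, and strand use in counting is not given in the sources used here.

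Gabrg3 (chromosome 7, 56716463 to 57387215) differed the other way. It was at 0.344, 0.547 and 0.487 RPKM in NC and 0.220, 0.176 and 0.224 RPKM in HE, from 77 to 125 and 40 to 47 reads. The HE samples were alike and all below NC, with a log2 fold change of -0.85 (SE 0.23, unadjusted p = 0.0076, adjusted p = 0.195 in limma; -0.89 without HE3).

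**Figure D3:**
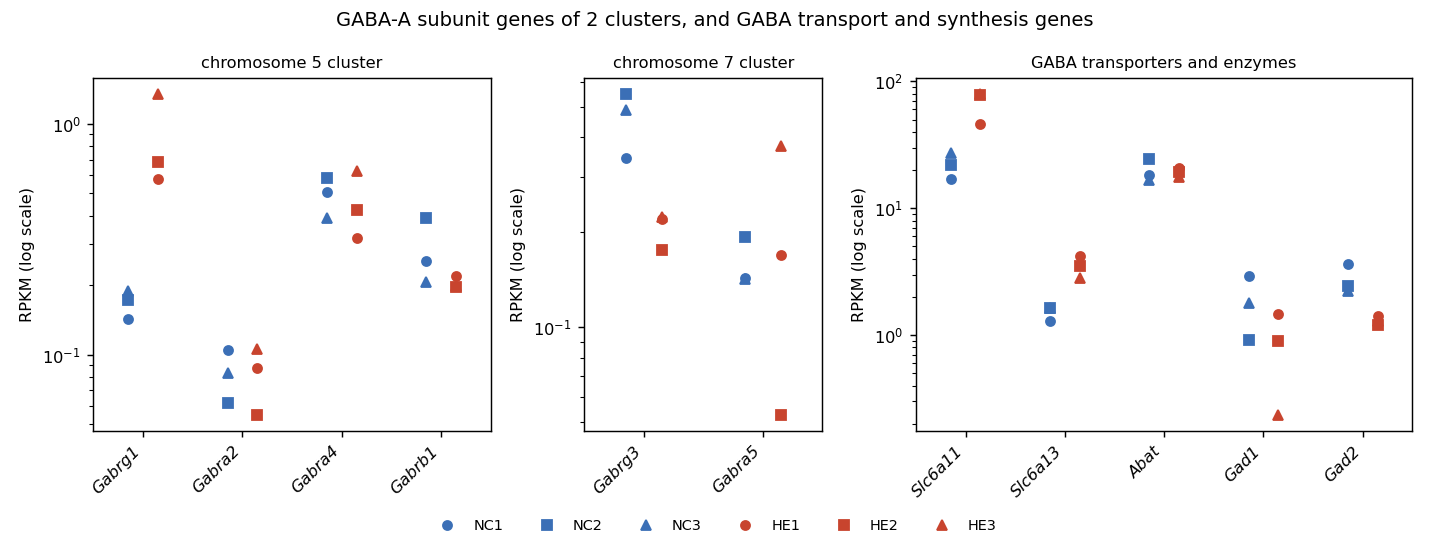
RPKM (log axis) of the GABA-A genes Gabrg1, Gabra2, Gabra4 and Gabrb1 (chromosome 5) and Gabrg3 and Gabra5 (chromosome 7) and of 5 genes of GABA transport and metabolism, by sample (blue NC, red HE). Gabrg1 lies higher and Gabrg3 lower in every HE sample than in any NC sample, whereas Gabra4 overlaps, and Slc6a11 and Slc6a13 lie higher in every HE sample.

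The genes of GABA handling were taken from a list of 18, of which 17 were tested, 5 being higher (3 without NC1) and 3 lower in HE at an unadjusted p under 0.05. Over all genes tested 8.68% were higher and 11.8% lower at this cutoff, and these shares stand beside the counts of the other lists. Slc6a11, a GABA transporter of astrocytes, was at 16.9, 21.8 and 27.2 RPKM in NC and 46.1, 78.4 and 78.8 RPKM in HE (log2 fold change 1.6, SE 0.26, adjusted p = 0.195 in limma). Slc6a13, a further GABA transporter, had 1.30 to 1.64 RPKM in NC and 2.81 to 4.19 RPKM in HE. Gad2, a GABA-synthesizing enzyme, was at 3.65, 2.46 and 2.21 RPKM in NC and 1.42, 1.21 and 1.30 RPKM in HE, a log2 fold change of -1.0 (SE 0.22). These transporters were thus higher and this enzyme lower, without overlap. Gabarap, which binds gamma subunits and is also an autophagy protein, was the most abundant, with means of 140 and 124 RPKM in NC and HE, and Gabarapl1 had a log2 fold change of -0.37.

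Glycine receptors had 1 tested gene, Glrb, whose beta subunit anchors the channel to gephyrin and needs an alpha subunit to form the usual channel. Glrb was at 3.08, 2.02 and 3.59 RPKM in NC and 5.18, 3.72 and 3.37 RPKM in HE, with overlap between NC3 and HE3 (log2 fold change 0.50, unadjusted p = 0.0962 in limma). NC2 was the lowest, and without it the log2 fold change was 0.27. The 4 alpha genes summed to 0.150 ± 0.0388 and 0.160 ± 0.0490 RPKM, so the beta gene held 95.1% of the class in NC. Of 7 tested genes of glycine transport and metabolism 4 were higher in HE at an unadjusted p under 0.05 and 0 lower, and the number higher was 2 without NC1, 2 without NC2 and 1 without NC3. The shares over all genes tested were 8.68% higher and 11.8% lower. Gcsh, of the glycine cleavage system, was at 25.2 to 33.3 RPKM in NC and 41.4 to 52.2 RPKM in HE (log2 fold change 0.70). Shmt1 and the transporter Slc6a9 had 0.71 and 0.64, while the abundant Shmt2 and Amt had 0.09 and 0.04.

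Nicotinic receptors are acetylcholine-gated cation channels. Their sum was 8.33 to 8.59 RPKM in NC and 8.34, 10.0 and 5.94 RPKM in HE, so that HE samples lay on both sides of NC. Chrnb1, a subunit of the muscle type, was at 3.54, 3.67 and 2.98 RPKM in NC and 2.69, 2.98 and 0.786 RPKM in HE. Its log2 fold change of -0.82 was -0.25 without HE3. Chrna4 and Chrnb2, which form the main brain receptor, had 0.30 and -0.22, neither at an unadjusted p under 0.05 (0.51 and -0.33 without HE3).

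Chrna1, the muscle-type alpha subunit, was at 0.0729, 0.143 and 0.205 RPKM in NC and 0.331, 0.299 and 0.496 RPKM in HE, from 6 to 35 reads. The groups did not overlap, and the log2 fold change was 1.00 (SE 0.30, unadjusted p = 0.0111, adjusted p = 0.195 in limma; 0.83 without HE3). The other muscle-type genes Chrnd, Chrng and Chrne had too few reads to be tested. Of 10 skeletal muscle markers 3 were tested and 0 had an unadjusted p under 0.05, and their sum was 1.79 to 4.66 RPKM in NC and 1.78 to 6.85 RPKM in HE. Chrna7, a neuronal subunit that forms channels on its own, was at 0.534 to 0.603 RPKM in NC and 0.669 to 1.06 RPKM in HE, without overlap, at an unadjusted p of 0.0644 in limma.

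Muscarinic receptors are the G protein-coupled acetylcholine receptors. Chrm3, which acts through phospholipase C, was at 0.272, 0.522 and 0.468 RPKM in NC and 0.657, 1.13 and 2.25 RPKM in HE. The HE values were spread over a wide range, all above NC, with HE3 highest. The log2 fold change was 1.35 (SE 0.43, unadjusted p = 0.0155, adjusted p = 0.195 in limma), and 0.92 without HE3. Chrm4, the most abundant of the class, was at 2.51 ± 0.434 and 2.11 ± 0.730 RPKM, and Chrm1 at 0.157 ± 0.0773 and 0.190 ± 0.0825 RPKM; for both the direction changed with single samples or weights, and the Chrm4 span overlaps that of Mdk, a growth factor gene. Of 10 tested partner genes of acetylcholine signaling 1 was higher (2 without HE1, 0 without NC3) and 2 lower (1 without HE3 or NC2) at an unadjusted p under 0.05. Among all genes tested 8.68% were higher and 11.8% lower. Slc18a3, the vesicular acetylcholine transporter, had 0.328 to 0.715 RPKM in NC and 0.0773 to 0.261 RPKM in HE (log2 fold change -1.49), Bche, butyrylcholinesterase, 0.125 to 0.333 and 0.373 to 1.03 RPKM (1.22), and Agrn, agrin, 41.8 to 54.8 and 25.0 to 43.2 RPKM (-0.55). Lrp4, an agrin receptor, was the most abundant at 61.2 and 38.9 RPKM.

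Serotonin receptors summed to 6.29, 7.91 and 7.14 RPKM in NC and 8.77, 9.79 and 13.6 RPKM in HE. The groups did not overlap, and HE was 1.51 times NC (1.31 times without HE3). Htr3a, the subunit of the serotonin-gated channel, held 76.3% of this sum in NC and 76.4% in HE. It was at 4.73, 6.32 and 5.22 RPKM in NC and 6.95, 7.48 and 10.2 RPKM in HE, a log2 fold change of 0.58 (SE 0.19, unadjusted p = 0.0177, adjusted p = 0.197 in limma; 0.41 without HE3). Its partner Htr3b had 0, 0 and 1 reads in NC and 3, 1 and 3 in HE.

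Htr2a, a phospholipase C-coupled receptor, was at 0.484, 0.475 and 0.586 RPKM in NC and 0.752, 0.759 and 2.72 RPKM in HE. HE1 and HE2 were just above NC and HE3 far above. The log2 fold change of 1.05 (SE 0.46, unadjusted p = 0.0566 in limma) was 0.48 without HE3. Htr2b, of the same coupling, was at 0.343 to 0.694 RPKM in NC and 0.146 to 0.394 RPKM in HE, with a log2 fold change of -0.80 (unadjusted p = 0.0539 in limma), from 5 to 28 reads, and -0.52 without HE3. Of 14 serotonin receptor genes 4 were tested, and the means of the other 10 were 0.00695 (Htr1f) to 0.157 RPKM (Htr6). The Htr2b span overlaps that of Psmd1.

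Dopamine receptors were low, at 0.933 to 2.22 RPKM in sum in NC and 0.385 to 1.65 RPKM in HE. Drd4 was at 0.679, 1.68 and 0.435 RPKM in NC and 0.628, 1.22 and 0.186 RPKM in HE, and Drd1 at 0.106 to 0.296 and 0.159 to 0.222 RPKM. The groups overlapped widely for both, and both changed direction when a single sample was left out.

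Adrenergic receptors, which bind noradrenaline and adrenaline, had 8 of 9 genes tested. Their sum did not separate the groups, with 12.8 to 14.0 RPKM in NC and 11.7 to 14.1 RPKM in HE, and Adrb1, which made up 57.5% of it in NC and 59.9% in HE, was at 7.71 ± 1.03 and 7.92 ± 1.74 RPKM.

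Adra1a, an alpha-1 adrenoceptor that acts through phospholipase C, was at 1.45, 2.60 and 1.44 RPKM in NC and 0.741, 0.934 and 0.214 RPKM in HE. All HE samples were below NC and HE3 lowest. Its log2 fold change of -1.52 (SE 0.47, unadjusted p = 0.0142, adjusted p = 0.195) was the lowest of the tested receptor genes, and it was -1.0 without HE3. Of 7 tested monoamine partner genes 1, Maoa, a monoamine-degrading enzyme, was higher at an unadjusted p under 0.05 (13.7 to 16.6 RPKM in NC, 19.2 to 24.0 in HE) and 0 were lower (1 without HE1 or HE2). For all genes tested the shares were 8.68% higher and 11.8% lower. The enzymes Th, Dbh and Tph2 were below 0.4 RPKM in every sample.

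**Figure D4:**
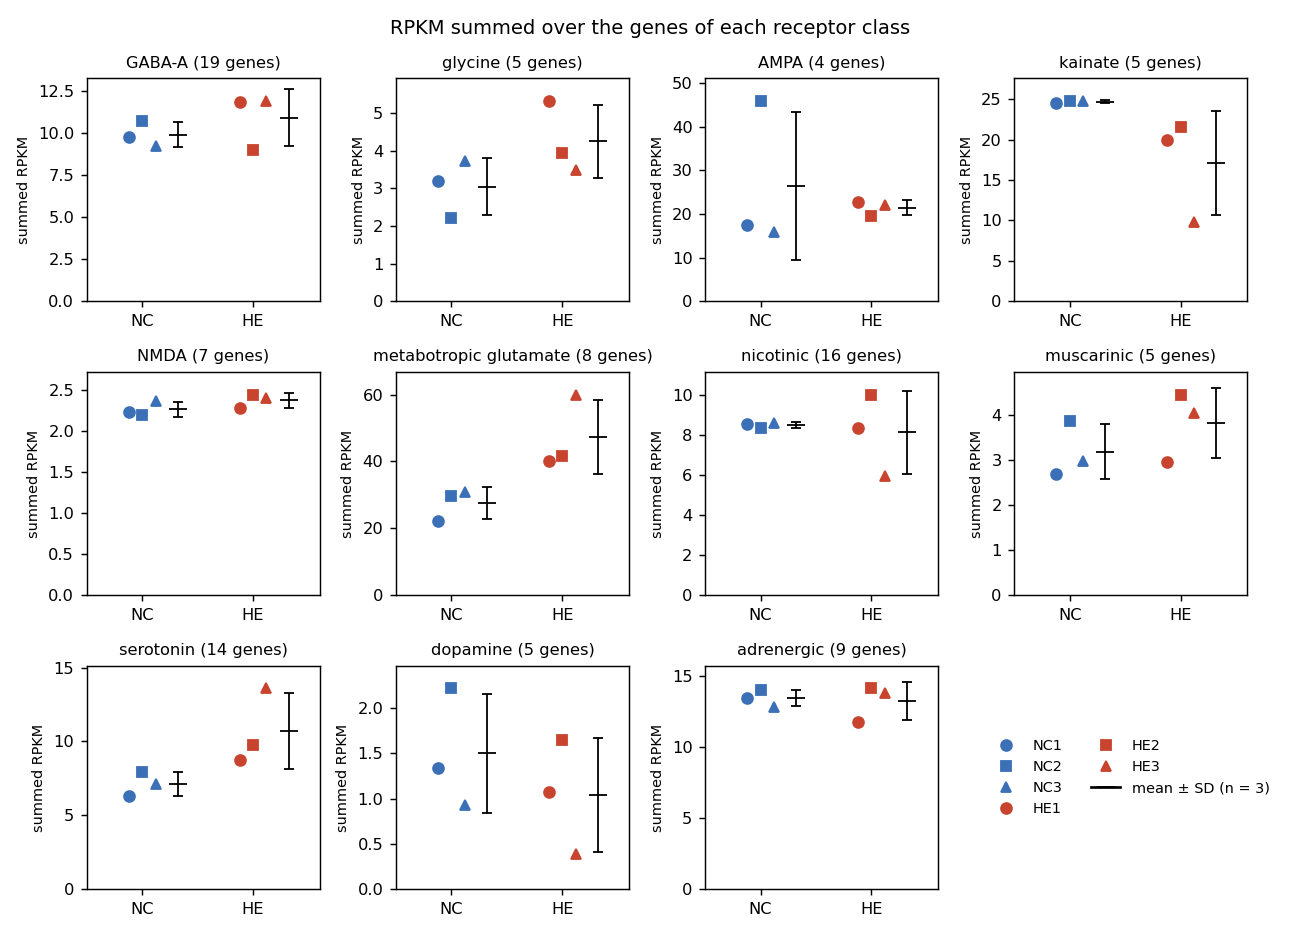
RPKM summed over the genes of each receptor class, by sample, with the mean and SD of each group (n = 3) beside the points; each axis starts at 0 and has its own scale. The HE points lie above all NC points for metabotropic glutamate and serotonin receptors and below them for kainate receptors, NC2 stands alone for AMPA, and HE3 is lowest for kainate, nicotinic and dopamine receptors.

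By mode of action, the 39 G protein-coupled receptor genes summed to 41.1, 51.4 and 49.6 RPKM in NC and 57.6, 64.1 and 81.7 RPKM in HE. The 42 pentameric channel genes summed to 26.2, 27.6 and 26.8 RPKM in NC and 32.5, 30.4 and 31.5 RPKM in HE. Both sums were apart, while the 16 glutamate channel genes overlapped, at 43.1 to 73.0 and 34.4 to 45 RPKM. Gene by gene both groups were split. Of the tested G protein-coupled genes 12 were higher and 9 lower (median log2 fold change 0.02), and of the pentameric channel genes 8 and 9 (median -0.00). Grm3 (means 17.3 and 25.6 RPKM in NC and HE) and Grm5 (8.39 and 19.8 RPKM) led the G protein-coupled sum, whose means were 47.4 and 67.8 RPKM. This pair accounted for nearly all of the difference in that sum, so its separation is not a trait of the other G protein-coupled genes. All 97 genes together summed to 128 ± 21.4 RPKM in NC and 140 ± 6.48 RPKM in HE, where the groups overlapped through Gria1 in NC2. Without Gria1 the sums were 105 ± 6.94 and 126 ± 6.73 RPKM and did not overlap. Gria1 was left out after its values had been seen, so this separation is descriptive only. A sum is led by its most abundant genes, and no test was made on sums.

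The partners of glutamate receptors were counted in the same way. Of 29 tested genes 2 were higher (4 without HE3) and 4 lower (2 without NC2 or NC3) at an unadjusted p under 0.05. Beside this, 8.68% of all genes tested were higher and 11.8% lower. Cacng5, an AMPA receptor auxiliary subunit, was at 16.5, 16.5 and 26.5 RPKM in NC and 11.6, 10.6 and 9.41 RPKM in HE (log2 fold change -0.87, standard error 0.20, adjusted p = 0.195 in limma). Glul, glutamine synthetase, had 123 to 130 RPKM in NC and 94.5 to 104 RPKM in HE, and Grip1, a scaffold that binds AMPA subunits, 2.54 to 2.70 and 3.42 to 4.52 RPKM. The transporter Slc1a3 was most abundant at 187 and 161 RPKM (log2 fold change -0.21). Neto2, a kainate receptor auxiliary subunit named after its values were seen, had a log2 fold change of 0.67.

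Of 30 genes for G proteins, effectors and desensitization, all tested, 1 was higher (0 without NC1) and 4 lower at an unadjusted p under 0.05. Again 8.68% of all genes tested were higher and 11.8% lower. Arrb1, a beta-arrestin that uncouples activated receptors, was at 16.6, 17.2 and 12 RPKM in NC and 8.86, 7.13 and 4.62 RPKM in HE (log2 fold change -1.17, standard error 0.26, adjusted p = 0.195 in limma). The adenylyl cyclases Adcy9 and Adcy6 had log2 fold changes of -0.78 and -0.68 without overlap, and the abundant G protein genes Gnai2 and Gnb2 had -0.11 and -0.13. The partner lists have medians of their own, at -0.08 for GABA, -0.20 for glutamate, 0.34 for glycine, -0.46 for acetylcholine, -0.27 for monoamines and -0.09 for G proteins, beside -0.059 for all genes.

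Markers of the cell types that such cultures can hold were read beside the receptors. Grm3, Grm5 and Gabrg1, with HE values above NC, are known from glia and were named here after their values were seen. Receptor genes that were lower or alike in HE, such as Adra1a and Adrb1, were not sorted by cell type. Of 10 astrocyte markers 4 were higher and 0 lower at an unadjusted p under 0.05 in limma. Over all genes tested 8.68% were higher and 11.8% lower at this cutoff, which applies to every marker list. By direction alone the astrocyte markers were mixed, with 6 higher and 4 lower. Aldh1l1, the most abundant of them, was at 553 to 698 RPKM in NC and 482 to 530 RPKM in HE, without overlap. Gjb6 was at 0.209 to 0.507 RPKM in NC and 0.878 to 1.65 RPKM in HE, and S100b at 5.42 to 9.30 and 10.6 to 15.5 RPKM. Gfap was at 624 to 754 RPKM in NC and 195 to 650 RPKM in HE, and the summed astrocyte level overlapped, at 1639 to 2065 and 1480 to 1912 RPKM. The 10 oligodendrocyte precursor markers summed to 352 to 369 RPKM in NC and 386 to 542 RPKM in HE, led by Olig1, with 0 higher and 1 lower, and in HE3 Sox10 was at 1.65 RPKM against 13.0 to 16.5 in the others.

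Neuronal markers summed to 124 to 158 RPKM in NC and 142 to 280 RPKM in HE, led by Gap43, which held 51.7% of the sum in NC and 64.7% in HE. Gap43 was at 66.3 to 75.1 RPKM in NC and at 86.6, 83.8 and 202 RPKM in HE, HE3 being far above the others. At an unadjusted p under 0.05, 2 of the 14 were higher, Map2 and Elavl4, and 0 lower, while 9 of the 14 had a log2 fold change below 0, and the median of the 14 was -0.16. Elavl3 (-0.72), Stmn2 (-0.69), Dcx (-0.52) and Syt1 (-0.30), named after their values were seen, were among these 9 and did not pass an unadjusted p of 0.05. Rbfox3, a marker of mature neurons, was at 0.0991 to 0.150 RPKM in every sample. Microglial markers were apart in sum, at 1.09 to 1.51 and 2.75 to 8.50 RPKM, with 2 of 5 tested higher, C1qb and Tmem119. C1qb, with 2, 0 and 0 reads in NC and 22, 12 and 35 in HE, passed the filter through the HE samples alone. Whether C1qb was tested thus depended on its level in HE, and it carries no weight in this count. The tested Cx3cr1, Csf1r and P2ry12 overlapped, with log2 fold changes of 0.32, 0.22 and -0.10. C1qa, which was not tested, was at 0, 0 and 0.0508 RPKM in NC and 0.967, 0.252 and 3.17 RPKM in HE. Endothelial markers were at 3.80 to 5.59 and 5.86 to 8.19 RPKM (2 of 5 higher) and mesenchymal markers at 35.3 to 100 and 83.5 to 182 RPKM (4 of 10 higher). Oligodendrocyte markers were at 105 to 180 and 71.1 to 148 RPKM (0 of 9 at an unadjusted p under 0.05), peripheral glia markers at 81.8 to 84.0 and 62.7 to 88.0 RPKM (1 of 8 lower), and 1 of 10 progenitor markers was lower. Without overlap, 3 of these 10 were lower in HE (Sox2, Sox1 and Prom1), against 17.9% of all genes tested, and 0 were higher, against 14.8%. Sox2 was at 195 to 209 RPKM in NC and 97.3 to 176 RPKM in HE. The part of these cell types in the receptor results was not tested.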

How the data were processed

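RNA-Seq of 3 HE and 3 NC samples was used. The authors aligned reads with TopHat2 to mm10, per the labels' processing notes, which also name CASAVA 1.7, and counted them per gene; the counting tool, annotation and strand setting are not given in the sources used here, and the paper and labels name different sequencers. The deposited table holds RPKM, made by the authors out of count, gene length and sample total (recomputed values differed by at most 4.99e-07), and read counts of unit other, because large counts carry commas. The commas were removed and the counts were used for the filter, the median-of-ratios scaling and voom. Count models were not run, although the study's methods name one.

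Symbols were matched for 21781 of 22048 genes, and coordinates and promoter windows are from RefSeq (GRCm38.p6). limma 3.58.1 in R 4.3.3 was fitted with a mean-variance trend to log2(RPKM + 0.1), with no term but group, and Benjamini-Hochberg adjustment over 13952 genes. Values of single genes are RPKM, mean ± SD with n = 3. Exact permutation of 3 against 3 samples cannot go below p = 0.1 and was not used. The steps were tested on simulated data.

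The receptor, partner and marker lists were chosen with earlier results of these data known. Named receptor genes were the 3 most abundant tested genes of each class, those at an unadjusted p under 0.05, those with groups apart and a log2 fold change of 1 or more, and the 5 highest and 5 lowest fold changes. Named untested genes were those with the most reads, of at least 15. Partner genes were up to 3 per list by p and the 2 most abundant. A few genes that these rules select are left out here. Other genes named, such as Grin1, Grin2b, Gabra2, Gabrb1, Chrna7, Neto2, Htr3b, Th, Dbh, Tph2 and the untested genes under 15 reads, were chosen after their values were seen. Sums within a class, such as those of Grin2, Grin3 and the Grm groups, were not among the groupings set in advance. Alternatives were a pseudocount of 1, no filter, 10 reads in every sample, median-of-ratios scaling, voom on read counts, sample weights, the replicate number as a block and each sample left out. Of the tested receptor genes, 11 overlap another protein-coding gene in the annotation. No columns of unmapped samples were present. Python 3.11.15 and matplotlib 3.10.9 made the summaries and plots.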

Additional observations from a re-analysis of the deposited data

How the results depend on the processing

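Of 14 fits, 12 called 0 of all genes tested. With sample weights, which gave HE3 a weight of 0.158, 268 genes were called and 5 of them were receptor genes, among them Gabrg1 (log2 fold change 1.56, adjusted p = 0.0199 in limma), Grm5 (1.05, 0.0253) and Chrm3 (1.26, 0.0456). Without NC3, 103 genes were called and 0 receptor genes, so leaving out single samples gave 0 to 103 calls. Receptor genes higher at an unadjusted p under 0.05 numbered 13, and 8 (without NC1) to 13 with a sample left out. Those lower numbered 2, and 5 with no filter, 4 with a pseudocount of 1, 5 with sample weights, 4 with voom and 2 to 5 with a sample left out. Receptor genes apart and lower in HE numbered 4, and 4 to 8 with a sample left out. The median log2 fold change of 0.01 was 0.16 with sample weights and -0.05 to 0.14 with a sample left out (0.11 without HE3, 0.14 without NC2). The AMPA ratio of sums was 0.678 to 1.29 with a sample left out (1.29 without NC2), and the NMDA ratio was 1.1 with median-of-ratios scaling. The cause of these shifts was not tested.

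Replicate numbers are shared by the groups, and deviations of samples with the same number correlated at 0.156, 0.0869 and 0.0603. Samples with different numbers correlated at -0.0764 to -0.00114, so each sample correlated best with its own number. This is a hint only, and whether the numbers pair the samples was not settled. The main fit has no term for pairing. With the replicate block 5 receptor genes were lower and 13 higher at an unadjusted p under 0.05, and 0 were called.

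Of 464 values of the 36 named receptor genes under the alternatives, 16 reversed in 9 genes. With sample weights these included Adrb1 (-0.08), Chrm4 (0.10), Drd4 (0.37) and Grik4 (0.07), and with a pseudocount of 1 Drd1 (-0.00048). With a sample left out, Adrb1 ranged from -0.13 (without HE3; -0.07 without NC2) to 0.19, Chrm1 from -0.04 (without HE2; -0.01 without NC1) to 0.41, Drd1 from -0.20 (without NC1; -0.04 without HE1) to 0.27, Drd4 from -0.99 to 0.11 (without HE3; 0.01 without NC2), Gabra4 from -0.33 to 0.06 (without HE1) and Gria1 from -0.77 to 0.23 (without NC2). Depth limits the receptor genes with few reads, such as Chrna1 and Htr2b.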
